A study of Mus musculus with 22 samples.

Results

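Krt4, Krt6a, Asprv1, Pglyrp1, Muc1 and Elf3 are epithelial genes whose signal was lower in extraocular muscle (EOM), which turns the eyeball, of SJL mice than of Balb mice. They are 6 of the 8251 genes that the arrays name, and every probe set annotated to them was taken, 9 of 12422. The genes were chosen on the EOM strain difference itself, so that difference is given below as a description, without a test. A filter on low signal left 8 of the 9 probe sets for the fits, and the other, for Krt4, is given by its values alone.

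The study measured RNA from EOM and from leg muscle of SJL and Balb mice on 22 Affymetrix arrays. There were 2 arrays each for SJL EOM and Balb EOM of 12 months and 3 arrays each for SJL EOM and Balb EOM of 10 months, and 3 arrays each for SJL leg and Balb leg at 12 and at 10 months. SJL is an inbred strain known to carry a mutation of the dysferlin gene and to develop a muscular dystrophy, and Balb is an inbred strain without it. The labels name the strain, the muscle and the age only, with no treatment, and the mutation cannot be told apart from the other differences between the strains. They do not say whether replicates came from separate animals, so p-values measure only the spread between these samples, which may be technical, and the number of arrays limits the precision.

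Epithelia cover surfaces and line glands, and keratins are the main intermediate filaments of their cells, where muscle fibres chiefly use desmin. In the orbit the eye muscles lie beside the conjunctiva, the cornea and the lacrimal and Harderian glands, whose epithelia make keratins, mucins and antibacterial proteins. Krt4 is a keratin of the upper layers of wet stratified epithelia, and Krt6a is a keratin of stressed or fast-renewing stratified epithelia. Asprv1 is a protease of the cornifying layers of the epidermis. Muc1 is a mucin anchored in the surface membrane of many epithelia. Pglyrp1 binds bacterial peptidoglycan and is made by neutrophils as well as by some epithelia. Elf3 is a transcription factor of the Ets family that is largely restricted to epithelia.

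Promoters are shown because the levels of the genes were correlated across the arrays, so that shared letters can be looked for. RefSeq promoter entries of assembly GRCm38.p6 were found for 4 of the 6 genes. Each sequence is the 250 bases before the annotated start, 5′ to 3′ on the gene's strand. Capitals mark the Ets motif GGAAG, the GC box GGGCGG and the TATA box TATAAA, each searched on both strands, and no match overlaps another.
Asprv1, chr6:86627924-86628173, plus strand: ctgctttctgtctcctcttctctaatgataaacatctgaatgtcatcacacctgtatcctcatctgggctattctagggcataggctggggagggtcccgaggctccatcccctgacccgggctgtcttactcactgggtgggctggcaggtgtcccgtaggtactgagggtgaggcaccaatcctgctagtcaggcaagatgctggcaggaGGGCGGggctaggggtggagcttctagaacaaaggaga
Pglyrp1, chr7:18884440-18884689, plus strand: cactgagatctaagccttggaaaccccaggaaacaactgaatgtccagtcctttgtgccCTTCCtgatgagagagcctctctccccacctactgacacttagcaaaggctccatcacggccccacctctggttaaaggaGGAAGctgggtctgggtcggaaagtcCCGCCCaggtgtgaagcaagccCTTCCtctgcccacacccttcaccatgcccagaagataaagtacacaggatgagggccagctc
Muc1, chr3:89228806-89229055, plus strand: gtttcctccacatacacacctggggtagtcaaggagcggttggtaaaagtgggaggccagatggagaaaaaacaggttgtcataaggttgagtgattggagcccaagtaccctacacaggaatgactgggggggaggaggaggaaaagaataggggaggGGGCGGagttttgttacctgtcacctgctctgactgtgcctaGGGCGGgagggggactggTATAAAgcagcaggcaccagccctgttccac
Elf3, chr1:135258473-135258722, minus strand: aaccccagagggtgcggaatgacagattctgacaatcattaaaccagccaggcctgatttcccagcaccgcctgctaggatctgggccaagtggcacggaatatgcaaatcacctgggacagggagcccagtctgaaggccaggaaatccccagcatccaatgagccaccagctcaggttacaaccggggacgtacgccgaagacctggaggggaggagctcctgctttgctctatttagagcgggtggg

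The 4 windows shared none of the motifs searched. The Ets motif GGAAG, 1 form of the site that Elf3 and its relatives bind, occurred at 3 places in the Pglyrp1 window. These begin 191, 111 and 63 bases before the start. GGAAG was not found in the other windows. Shorter or other forms of the Ets site, such as GGAA, were not searched, and GGAA can be read in the Muc1 and Elf3 windows. A GC box lay 38 bases before the start of Asprv1 and 85 before that of Pglyrp1, and Muc1 had GC boxes 91 and 49 bases before its start and a TATA box 31 bases before it. The Elf3 window held none of the marked motifs, and the AP-1 motif TGANTCA was found in no window. Of 32851 mouse promoter windows of the same length, 64.1% held GGAAG, 32.7% the GC box, 12.4% the TATA box and 6.75% the AP-1 motif. These matches describe letters and not bound sites.

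Values are linear intensities as deposited, which the authors had scaled to a common level on every array. They are set beside each other only within a probe set. Differences between groups are on the scale of log2(intensity + 16), which understates changes of weak signals, and come from 1 limma fit of all 22 arrays.

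Krt6a had a wider strain gap in EOM than Krt4, the other keratin among the 6. Its first probe set, 104369_at, read 441 and 649 in SJL EOM of 12 months, against 6245 and 12700.5 in Balb EOM of 12 months. At 10 months it read 2214, 1993 and 1459 in SJL EOM, against 4191, 3945 and 2788 in Balb EOM. Every SJL EOM array thus lay below every Balb EOM array at both ages, and the strains stood furthest apart at 12 months. The log2 difference, SJL minus Balb, was -4.02 (SE 0.38) at 12 months and -0.94 (SE 0.31) at 10 months, or -2.48 (SE 0.25) with the ages weighted equally. As ratios on the same scale, SJL EOM stood at 0.0618 of Balb EOM at 12 months and at 0.521 at 10 months.

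The other Krt6a probe set, 104370_s_at, carries the suffix that Affymetrix gives to probes shared by related transcripts. Krt6b is a near copy of Krt6a, and this signal may hold both. The probe set read 79.1 and 85.6 in SJL EOM of 12 months, against 2586 and 3914 in Balb EOM of 12 months. At 10 months it read 244, 990 and 1052 in SJL EOM, against 828, 1457 and 1432 in Balb EOM. The groups did not overlap at 12 months, while at 10 months the SJL arrays of replicates 2 and 3 lay above the lowest Balb array. The log2 difference was -5.02 (SE 0.57) at 12 months, the lowest of any member, and -0.90 (SE 0.47) at 10 months. Across both ages it was -2.96 (SE 0.37).

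Krt4 differed less. Probe set 100421_at read 898 and 1144 in SJL EOM of 12 months, against 2416 and 3757 in Balb EOM of 12 months. It read 1974, 2697 and 2207 in SJL EOM of 10 months, against 2872, 3139 and 2513 in Balb EOM of 10 months. The strains were apart at 12 months and overlapped at 10 months, where the SJL array of replicate 2 exceeded the lowest Balb array. The log2 difference was -1.56 (SE 0.28) at 12 months and -0.31 (SE 0.23) at 10 months. The second Krt4 probe set, 161647_f_at, was too weak for the fits, with 23.6 to 357 over all arrays. Its EOM values were 92.6 to 258 in SJL and 61.9 to 357 in Balb, and they overlapped. Its log2 difference was -0.02 (SE 0.50) in a fit without the filter, so the lower Krt4 signal of SJL EOM rests on 1 probe set.

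Asprv1 read 394 and 576 in SJL EOM of 12 months, against 1785 and 3484 in Balb EOM of 12 months. At 10 months the values were 1602, 1606 and 1552 in SJL EOM, against 1813, 1714 and 2189 in Balb EOM. SJL lay below Balb without overlap at both ages, by a narrow margin at 10 months. On the log2 scale Asprv1 differed by -2.35 (SE 0.34) at 12 months and by -0.25 (SE 0.28) at 10 months, so at the earlier age it was smaller than its standard error.

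**Figure D1:**
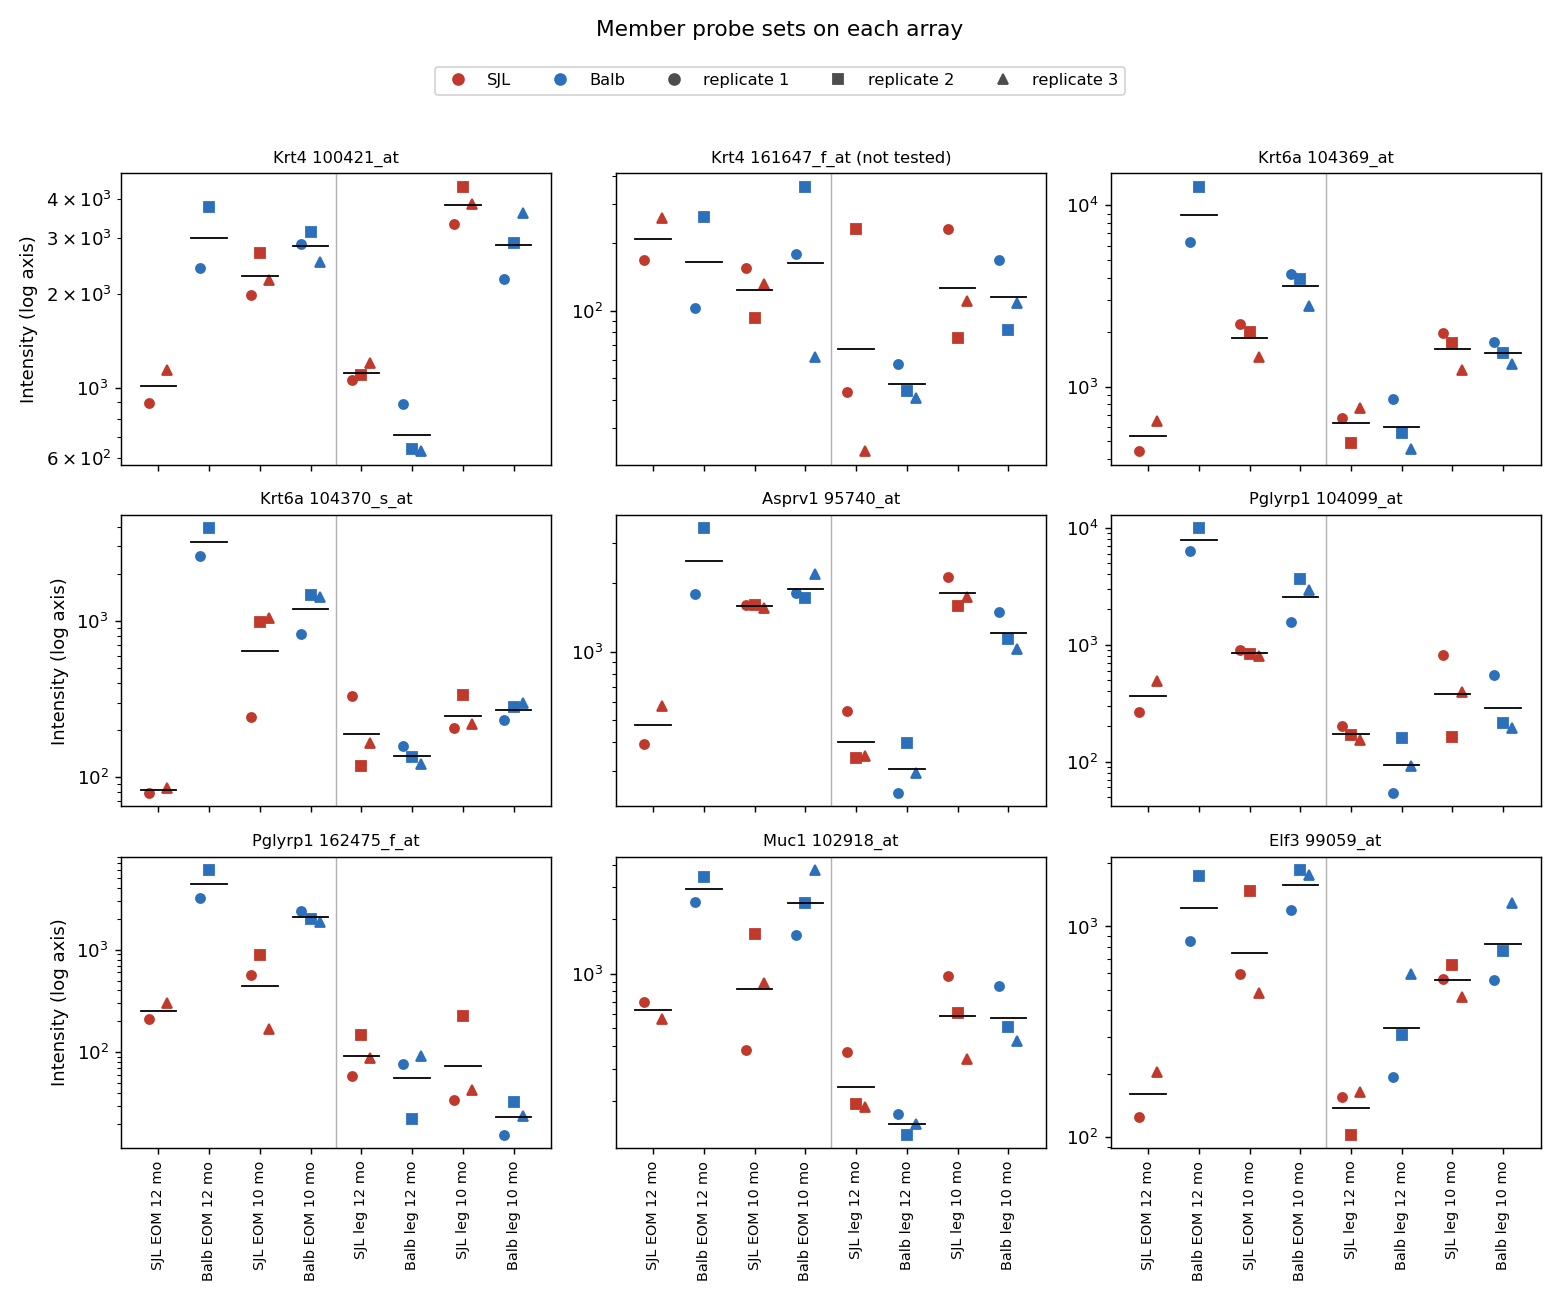
Intensity (log axis) of each probe set of the 6 genes on each of 22 arrays, by group, with SJL in red and Balb in blue, the replicate number as the marker shape and the group mean on the log2(intensity + 16) scale as a line. In EOM of 12 months, SJL points lie below Balb points in 8 of the 9 panels, and the exception is the weak Krt4 probe set.

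Among the genes of the epithelial surface, Muc1 differed at both ages. It read 699 and 565 in SJL EOM of 12 months, against 2503 and 3410.3 in Balb EOM of 12 months. It read 378, 1661 and 896 in SJL EOM of 10 months, against 1643, 2469 and 3733 in Balb EOM of 10 months. At 10 months the SJL array of replicate 2 lay just above the Balb array of replicate 1, and at 12 months the strains did not overlap. For Muc1 the log2 difference was -2.19 (SE 0.59) at 12 months and -1.56 (SE 0.48) at 10 months, the smallest change between ages of the 8 probe sets.

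Pglyrp1 was lower in SJL EOM on both of its probe sets. Probe set 104099_at read 268 and 492 in SJL EOM of 12 months, against 6265 and 9868 in Balb EOM of 12 months. At 10 months it read 891, 835 and 805 in SJL EOM, against 1552, 3663 and 2948 in Balb EOM. Every SJL array lay below every Balb array at both ages. The log2 difference was -4.38 (SE 0.63) at 12 months, -1.58 (SE 0.51) at 10 months and -2.98 (SE 0.41) across both.

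The second Pglyrp1 probe set, 162475_f_at, read 209 and 303 in SJL EOM of 12 months, against 3179 and 5970.0 in Balb EOM of 12 months. At 10 months it read 560.1, 890.5 and 169 in SJL EOM, against 2410, 2010.2 and 1883 in Balb EOM. Again no SJL array reached a Balb array. The log2 difference was -4.03 (SE 0.76) at 12 months, -2.20 (SE 0.62) at 10 months and -3.11 (SE 0.49) across both. This probe set passed the filter on low signal through its high level in Balb EOM, with 15.6 to 227 in leg, so its selection and its difference are tied.

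Elf3 read 125 and 203 in SJL EOM of 12 months, against 856 and 1741 in Balb EOM of 12 months. It read 596, 1466 and 482 in SJL EOM of 10 months, against 1196, 1852 and 1750 in Balb EOM of 10 months. The SJL array of replicate 2 at 10 months lay within the Balb range, and the strains were apart at 12 months. Elf3 thus differed by -2.82 (SE 0.56) on the log2 scale at 12 months and by -1.05 (SE 0.46) at 10 months.

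Over all 8 probe sets the EOM strain difference ran from -3.11 to -0.94, with a median of -2.21, against a median of -0.04 for the 8695 probe sets tested. At 12 months every SJL EOM array lay below every Balb EOM array in 8 of 8 probe sets, a pattern that 25.6% of all probe sets tested showed with these 2 arrays against 2. At 10 months, with 3 against 3, it held for 4 of 8 (104369_at of Krt6a, Asprv1 and both for Pglyrp1), where 4.22% of all did. At both ages it held for the same 4, where 2.10% of all did. With arrays of the same replicate number set beside each other at 10 months, SJL EOM lay below Balb EOM in all 3 pairs for 8 of 8, where 17.8% of all did. Of all probe sets tested, 0.564% were called lower and 0.368% higher in SJL EOM. Nothing is read from these shares, because the difference chose the genes. The EOM strain difference was further below 0 at 12 than at 10 months in all 8, by -4.13 (104370_s_at of Krt6a) to -0.63 (Muc1) on the log2 scale, which was not tested.

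**Figure D2:**
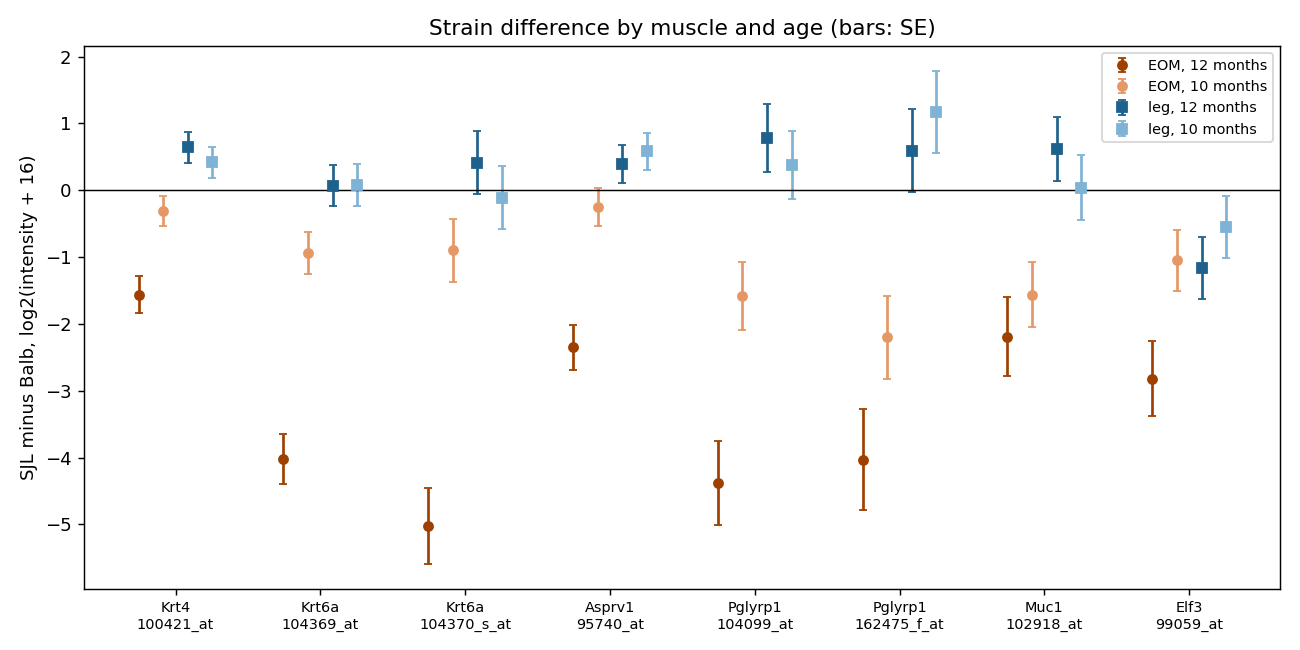
Strain difference, SJL minus Balb on the log2(intensity + 16) scale, for 8 probe sets in EOM (circles) and leg (squares) at 12 months (dark) and 10 months (light), with standard errors as bars. All 16 EOM points are below 0 and the lower one of each pair is that of 12 months, while leg points run from -1.16 to 1.17.

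The leg arrays of the same strains ask whether the difference was also present away from the eye. They were not used to choose the genes, although the leg values were known when the genes were proposed. None of the 8 probe sets passed in leg (0 of 8 by limma, adjusted p = 0.172 to 0.979), where 1.41% of all probe sets tested did, and 3 of 8 had an unadjusted p under 0.05. A p that misses the threshold does not show that the strains have equal levels in leg. In 7 of 8 the leg difference was above 0, and the median was 0.41, against -0.02 for all probe sets tested.

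For the keratins, 104369_at of Krt6a read 487 to 761 in SJL leg and 456 to 856 in Balb leg of 12 months, and 1229 to 1982 in SJL leg and 1329 to 1772 in Balb leg of 10 months. The ranges overlapped at both ages, and the log2 difference was 0.07 (SE 0.22, adjusted p = 0.979 by limma). Krt4 read 1058 to 1200 in SJL leg and 629 to 891 in Balb leg of 12 months, without overlap, and 3318 to 4380.2 in SJL leg and 2233 to 3607 in Balb leg of 10 months. Its log2 difference in leg was 0.53 (SE 0.16, adjusted p = 0.172 by limma), on the other side of 0 from EOM. With the replicate number as a block at 10 months it passed (0.53, SE 0.14, adjusted p = 0.0360 by limma), as 1 of the 8.

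Asprv1 read 341 to 551 in SJL leg and 239.5 to 398 in Balb leg of 12 months, and 1585 to 2134 in SJL leg and 1024 to 1490.0 in Balb leg of 10 months. The strains overlapped at 12 months only, and the log2 difference was 0.48 (SE 0.20, adjusted p = 0.463 by limma). Elf3, the transcription factor, was the member with a leg difference below 0. It read 102 to 163 in SJL leg and 193 to 595 in Balb leg of 12 months, apart, and 463 to 656 in SJL leg and 557 to 1299 in Balb leg of 10 months, overlapping. The log2 difference was -0.86 (SE 0.32, adjusted p = 0.366 by limma).

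Muc1 and Pglyrp1 had leg differences of 0.33 (Muc1, SE 0.34), 0.58 (104099_at of Pglyrp1, SE 0.36) and 0.88 (162475_f_at of Pglyrp1, SE 0.44) on the log2 scale, and none of the 3 passed. Single SJL leg arrays of 10 months moved them. Without the replicate 1 array they were 0.15 (Muc1), 0.31 (104099_at) and 1.09 (162475_f_at). Muc1 was 0.52 without the replicate 3 array, and without the replicate 2 array 104099_at was 0.87 and 162475_f_at 0.52. Every SJL leg array lay above every Balb leg array at 12 months in 2 of 8 probe sets (Krt4 and Muc1), where 13.2% of all did, and at 10 months in 2 (Asprv1 and 162475_f_at of Pglyrp1), where 4.26% of all did. Probe set 162475_f_at was weak in leg, with a mean under the filter level. Its lowest SJL leg value of 10 months was 33.8 and its highest Balb one 32.7. Every SJL leg array lay below every Balb leg array at 12 months in 1, Elf3, where 14.3% of all did, and at 10 months in 0, where 4.14% of all did. The strain difference was 1.07 (Elf3) to 4.0 (162475_f_at of Pglyrp1) log2 units higher in leg than in EOM, which shares the arrays that chose the genes and was not tested.

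The comparison of EOM with leg, averaged over strains and ages, asks how far these genes belonged to the eye samples. Both strains had equal numbers of EOM arrays at each age, and the average joins strains that differed, with a median EOM minus leg difference of 0.22 in SJL and 2.83 in Balb. Probe set 162475_f_at of Pglyrp1 is set aside here, because its mean log2 level in leg, 6.18, was under the filter level of 7.72 and it was kept through EOM. Of the other 7 probe sets, 6 were higher in EOM by limma and 0 were lower, where 14.8% of all probe sets tested were higher and 9.05% lower. The median difference of the 7 was 1.26, against 0.08 over all. No test within a strain is read here, because the choice of genes required Balb EOM to be above SJL EOM. By the strain medians above, the difference of the average lay largely in Balb EOM.

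Pglyrp1 was higher in EOM by 2.85 log2 units for 104099_at (SE 0.27, adjusted p = 5.70e-07 by limma), and 162475_f_at stood 3.83 above leg as a value without a test. The level of 104099_at in EOM was 658 ± 268 in SJL and 4859 ± 3282 in Balb (SD, n = 5 each), against 316 ± 263 in SJL leg and 211 ± 177 in Balb leg (SD, n = 6 each, both ages together). Muc1 was higher in EOM by 2.02 (SE 0.25, adjusted p = 1.39e-05), and its EOM level was 839.8 ± 496 in SJL and 2752 ± 832 in Balb, against 446 ± 303 in SJL leg and 374 ± 287 in Balb leg. The SJL EOM levels of both genes thus lay nearer to leg than the Balb EOM levels did.

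Krt6a was higher in EOM by 1.26 (104369_at, SE 0.16, adjusted p = 2.11e-05) and 1.68 (104370_s_at, SE 0.25, adjusted p = 7.00e-05). Asprv1 was higher by 0.92 (SE 0.15, adjusted p = 1.92e-04), and Elf3 by 0.85 (SE 0.24, adjusted p = 0.0160). The call for Elf3 was lost when 1 array was left out, either the replicate 2 array of Balb EOM of 12 months (0.72) or the replicate 3 array of SJL EOM of 12 months (0.77). Krt4 did not pass (0.29, SE 0.12, adjusted p = 0.0953 by limma), although it did with the replicate block at 10 months (0.29, SE 0.11, adjusted p = 0.0360), and at 10 months alone its EOM minus leg difference was -0.38.

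Within a strain, which is a description only, EOM minus leg was -0.44 to 1.83 in SJL and 1.02 to 5.83 in Balb. In SJL, 104369_at of Krt6a (-0.02) and Asprv1 (0.02) had nearly equal mean levels in EOM and leg, and Krt4 was lower in EOM (-0.44). Pglyrp1 kept the widest SJL difference, at 1.83 for 162475_f_at and 1.07 for 104099_at.

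The order of the 4 strain and muscle groups by mean log2 level over the arrays of both ages was the same in Muc1, Asprv1, Pglyrp1 and Krt6a, with Balb EOM first, then SJL EOM, SJL leg and Balb leg. In Elf3 the order was Balb EOM (10.49), Balb leg (9.07), SJL EOM (8.73) and SJL leg (8.21). In Krt4 it was Balb EOM (11.51), SJL leg (11.03), SJL EOM (10.70) and Balb leg (10.50). The ranges of neighbouring groups in these orders overlapped over both ages except between Balb EOM and SJL EOM for 104369_at of Krt6a, Asprv1 and Pglyrp1. EOM had 2 arrays per strain at 12 months and leg had 3, so these means weigh the ages unequally. At 12 months alone, SJL EOM lay below both leg groups for Krt6a. The mean log2 level of 104369_at was then 9.11 in SJL EOM, 9.33 in SJL leg and 9.27 in Balb leg. That of 104370_s_at was 6.62 in SJL EOM, 7.67 in SJL leg and 7.26 in Balb leg. At 10 months Asprv1 was 10.65 in SJL EOM and 10.83 in SJL leg.

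Age was compared within each muscle. Array medians differed with age, at 459 to 491 in SJL EOM and 522 to 562 in Balb EOM of 12 months, at 591 to 630.5 in SJL EOM and 619 to 639.9 in Balb EOM of 10 months, and at 426 to 453 in leg of 12 months and 566 to 651 in leg of 10 months. Age cannot be told apart from this difference between the arrays. Of the 8 probe sets, 6 were lower in leg of 12 months than of 10 months by limma and 0 were higher, where 27.0% of all probe sets tested were lower and 11.5% higher. The median was -1.44, against -0.09 over all.

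Among these, the leg log2 difference of Asprv1 was -2.03 (SE 0.20, adjusted p = 9.32e-07) and that of Krt4 -1.87 (SE 0.16, adjusted p = 3.13e-07). Elf3 differed by -1.59 (SE 0.32, adjusted p = 8.29e-04), Muc1 by -1.55 (SE 0.34, adjusted p = 0.00152) and 104369_at of Krt6a by -1.34 (SE 0.22, adjusted p = 1.24e-04). Probe set 104099_at of Pglyrp1 passed at -1.26 (SE 0.36, adjusted p = 0.0107) and missed under 2 other scalings of the arrays, at -0.67 with quantile normalization and -0.83 with median centring. Its second probe set disagreed, at 0.58 (SE 0.44, adjusted p = 0.312), and passed as higher under quantile normalization (1.16). That probe set was weak in leg, with a mean log2 level of 6.18, under the filter level of 7.72. Probe set 104370_s_at of Krt6a did not pass (-0.63, SE 0.33, adjusted p = 0.140).

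In EOM, 3 of the 8 were lower at 12 months with the strains averaged, where 19.7% of all were lower. They were Elf3 (-1.24, SE 0.36, adjusted p = 0.0166), Asprv1 (-0.65, SE 0.22, adjusted p = 0.0362) and Krt4 (-0.53, SE 0.18, adjusted p = 0.0375). None of the 3 passed under quantile normalization or median centring, or without the replicate 1 array of Balb EOM or of SJL EOM of 12 months. Only 1 of the 8 passed without the replicate 1 array of Balb EOM or the replicate 2 array of SJL EOM of 10 months. The same number passed when only the EOM arrays were fitted. The average joins strains that differed. The age difference of Asprv1 was -1.70 in SJL EOM and 0.39 in Balb EOM, and that of Krt4 was -1.15 in SJL EOM and 0.09 in Balb EOM. In Balb EOM, every 12-month array lay above every 10-month array for both Krt6a and both Pglyrp1 probe sets, 4 of the 8 tested, where 16.9% of all did. In SJL EOM, every 12-month array lay below every 10-month array in 6 of 8, Krt4, both for Krt6a, Asprv1, 104099_at of Pglyrp1 and Elf3, where 29.4% of all did. Both patterns held in 3 of 8, both for Krt6a and 104099_at of Pglyrp1, where 0.230% of all showed both. The genes were chosen for their EOM strain difference, so nothing is read from these shares.

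As values only, the age difference of 104369_at of Krt6a was -1.77 in SJL EOM and 1.31 in Balb EOM, and that of 104099_at of Pglyrp1 was -1.18 in SJL EOM and 1.61 in Balb EOM. Elf3 was below 0 in both strains, at -2.13 in SJL EOM and -0.36 in Balb EOM. EOM minus leg at 12 months less that at 10 months was -0.44 to 1.48, and 0 of 8 passed by limma, where 0.0115% of all did, with 5 of 8 at an unadjusted p under 0.05. Without the 4 replicate 1 arrays of 10 months, 2 passed, Krt4 (1.44) and Asprv1 (1.22). The same 2 passed with the replicate block at 10 months, Krt4 at 1.34 (SE 0.21, adjusted p = 0.00595 by limma) and Asprv1 at 1.37 (SE 0.29, adjusted p = 0.0369).

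Lists of marker genes of the tissues that could adjoin an eye muscle were read on the same arrays. In bulk RNA, fewer cells of a type and less RNA per cell cannot be told apart. Of 44 genes of stratified epithelium and its cornified envelope, 36 were measured and 27 were tested. Of these, 3 passed by limma as lower in SJL EOM, with 0 higher and 11 whose unadjusted p was under 0.05. Of all probe sets tested, 0.564% were lower and 0.368% higher. These shares stand beside the EOM strain counts of every list and family below. The list median was -0.40, against -0.04 for all probe sets tested, and 19 of 27 were below 0. Its summed intensity was 37811 to 39454 in SJL EOM and 51210.2 to 55504 in Balb EOM of 12 months, apart, and 53419 to 69208 in SJL EOM and 47292 to 66531 in Balb EOM of 10 months, overlapping. The gene Sprr1b held a large part of that sum, with 20553 to 22336 in SJL EOM and 17216 to 21944 in Balb EOM of 12 months. At 10 months Sprr1b read 22212 to 43322 in SJL EOM and 2944 to 37623 in Balb EOM.

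The 3 that were lower were Aldh3a1, a crystallin-like enzyme of the corneal epithelium (-2.08, SE 0.39, adjusted p = 0.00848), Perp, a desmosome protein (-1.80, SE 0.39, adjusted p = 0.0309), and Ppl, the cornified envelope protein periplakin (-0.84, SE 0.19, adjusted p = 0.0452). Perp read 329 to 539 in SJL EOM and 1554 to 3030.2 in Balb EOM of 12 months, and 351 to 804 in SJL EOM and 830.3 to 1435 in Balb EOM of 10 months. The strains did not overlap for Perp at either age. These calls changed with single arrays. In the 22 fits that left out 1 array, Aldh3a1 missed the threshold in 2 (without the replicate 2 array of Balb EOM or the replicate 3 array of SJL EOM, both of 12 months), Ppl in 17, and Perp in 7 (without either SJL EOM array or the replicate 2 Balb EOM array of 12 months, or a replicate 1 or 3 EOM array of 10 months of either strain). Perp and Ppl also missed it when only the EOM arrays were fitted.

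The defining keratins of stratified epithelium did not all go the same way. Krt5, a keratin of its basal layer, was weak, at 47.6 to 98.3 in SJL EOM and 162 to 251 in Balb EOM of 12 months, and at 92.2 to 120.2 in SJL EOM and 72.4 to 406 in Balb EOM of 10 months. Krt14, its partner, read 57.2 to 59.7 in SJL EOM and 86.7 to 205 in Balb EOM of 12 months. Both were under the filter on low signal and were not tested. Krt12, the keratin of the corneal epithelium, had a difference above 0 that did not pass (1.42, SE 0.56, adjusted p = 0.419), and it was no higher in EOM than in leg (0.01).

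Krt13, the usual partner of Krt4, did not pass at -1.03 (SE 0.55, adjusted p = 0.696), nor did Trp63, the factor of basal cells, at -0.40 (SE 0.29, adjusted p = 0.858). Krt13 stood 1.82 above leg in EOM, without a test, since its leg mean was under the filter. Dsp, the desmosome plaque protein, had -2.25 (SE 0.55, adjusted p = 0.0629 by limma), and it passed with the replicate block at 10 months. Of the 27 genes, 8 were higher and 1 lower in EOM than in leg, where 14.8% of all probe sets tested were higher and 9.05% lower. Among the 8, 3 (Krt13, Perp and Pax6) had a leg mean under the filter, so that these had to be higher in EOM to be tested.

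Of 38 genes of simple and glandular epithelium, 32 were measured and 17 were tested, and 0 passed between SJL EOM and Balb EOM by limma, while 5 had an unadjusted p under 0.05. Their median was -0.32, and 15 of 17 were below 0. The summed intensity was 12194 to 15424 in SJL EOM and 23496 to 31271 in Balb EOM of 12 months, apart, and 24476 to 31176 in SJL EOM and 29404 to 40739.8 in Balb EOM of 10 months. Krt8, a keratin of simple epithelia, had -1.94 (SE 0.49, adjusted p = 0.0842 by limma), and Cdh1, the epithelial cadherin, -0.18 (SE 0.21, adjusted p = 0.966). The leg mean of Krt8 was under the filter, so Krt8 was kept through EOM, where Balb read higher. Its pass with the replicate block at 10 months is therefore not read. Atp1b1 had 0.02 (SE 0.17, adjusted p = 0.994 by limma) and Prom1 -0.90 (SE 0.28, adjusted p = 0.219). Epcam, an epithelial adhesion protein, was under the filter, at 13.5 to 114 in SJL EOM and 140.4 to 367 in Balb EOM of 12 months.

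Of 19 proteins secreted by orbital glands, 11 were measured and 7 tested. Bpifa2, a secreted protein of salivary and related glands, was the 1 that passed as lower in SJL EOM (-1.83, SE 0.38, adjusted p = 0.0234). It read 4961 to 7576 in SJL EOM and 11869 to 13674 in Balb EOM of 12 months, and 1057 to 3486 in SJL EOM and 11707 to 15600.5 in Balb EOM of 10 months, with no overlap. The call was lost without any 1 of the 4 EOM arrays of 12 months and when only the EOM arrays were fitted. Bpifa2 was higher in EOM than in leg by 4.77 (adjusted p = 6.05e-10 by limma). Obp1a, an odorant-binding protein of nasal glands, stood 5.88 above leg, without a test, since its leg mean was under the filter. Obp1a did not pass between strains (-0.68, SE 0.80, adjusted p = 0.968). Nor did Mup5 (-1.01, SE 0.55, adjusted p = 0.717 by limma). The summed intensity of the list was 13926 to 16326 in SJL EOM and 19888 to 25686 in Balb EOM of 12 months, and 9558 to 18248 in SJL EOM and 19559 to 51720.4 in Balb EOM of 10 months, apart at both ages.

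Neutrophils also make Pglyrp1. Of 21 neutrophil genes, 17 were measured and 10 tested, and 0 passed between SJL EOM and Balb EOM by limma, while 1 had an unadjusted p under 0.05. Their median was -0.18, with 9 of 10 below 0, and the summed intensity was 4375 to 5418 in SJL EOM and 6113 to 6393 in Balb EOM of 12 months. At 10 months it was 10006 to 13322 in SJL EOM and 10729 to 18118 in Balb EOM. Ltf, lactoferrin of neutrophil granules and glands, had -1.29 (SE 0.41, adjusted p = 0.240), and S100a8, an abundant neutrophil protein, had -0.18 (SE 0.58, adjusted p = 0.991). Camp had -0.19 (SE 0.44, adjusted p = 0.991 by limma) and Chil3 -0.01 (SE 0.27, adjusted p = 0.997). The Pglyrp1 probe sets had -2.98 and -3.11 in the same contrast.

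Of 24 genes of lens, corneal stroma and retina, 17 were measured and 7 tested, and 0 passed between strains in EOM, with 1 at an unadjusted p under 0.05 and a median of 0.16. None of the 7 passed between EOM and leg either, where 14.8% of all probe sets tested were higher and 9.05% lower. Of 18 skeletal muscle genes, 17 were measured and 16 tested, and 0 passed between strains in EOM, with 1 at an unadjusted p under 0.05 and a median of 0.00. Myh3, the embryonic myosin that adult eye muscle keeps, was higher in EOM than in leg by 4.98 (SE 0.19, adjusted p = 1.07e-11), a check of the tissue labels. In leg, 0 genes of any of these lists passed between strains by limma, where 1.41% of all probe sets tested did. Without the 4 replicate 1 arrays of 10 months, 1 simple epithelium gene was lower in SJL leg. On those arrays 1 orbital gland gene and 1 skeletal muscle gene were higher, where 354 of all 8695 probe sets were higher and 357 lower.

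**Figure D3:**
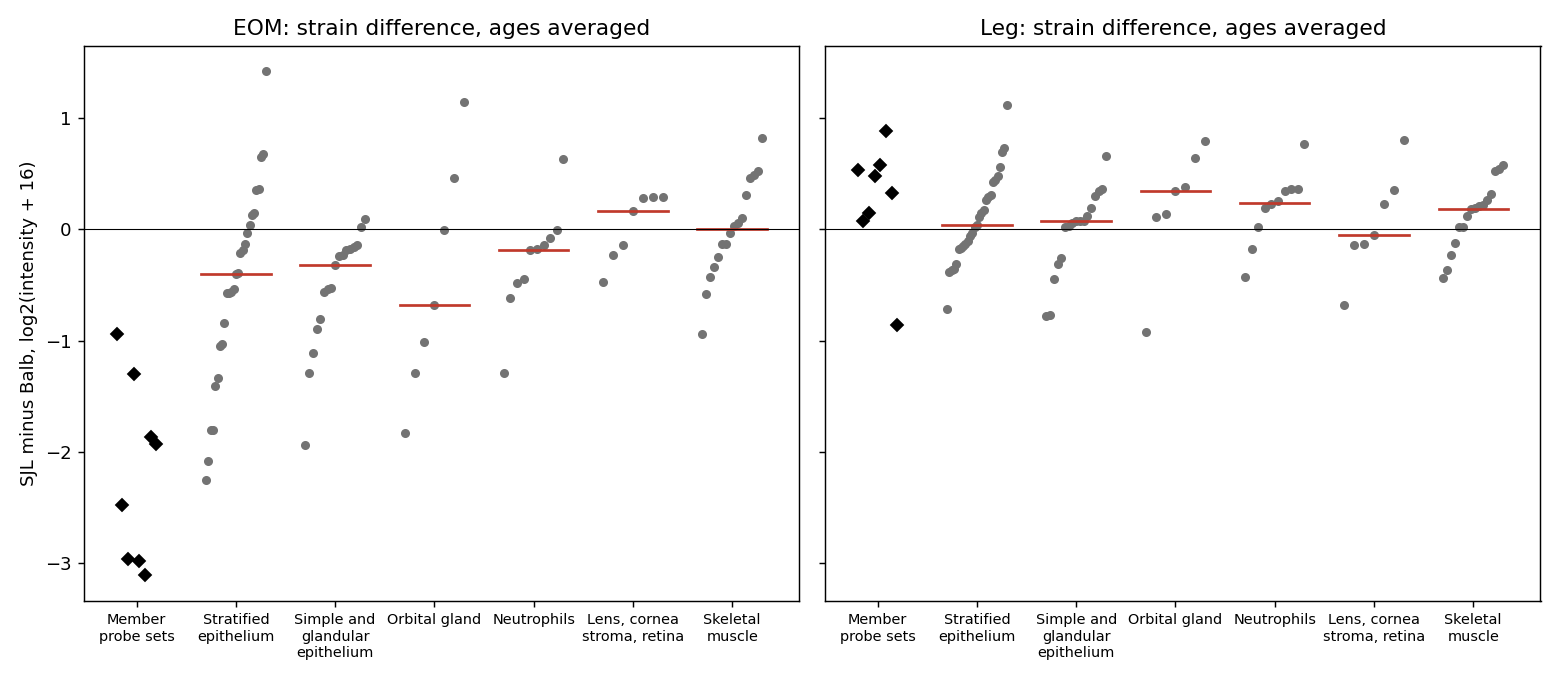
Strain difference, SJL minus Balb on the log2(intensity + 16) scale with ages averaged, in EOM (left panel) and leg (right panel) for the 8 probe sets of the 6 genes (diamonds) and the tested genes of 6 marker lists (circles, with the list median as a line). In EOM the list medians run from -0.68 for orbital gland proteins to 0.16 for lens, corneal stroma and retina, while the 6 genes lie between -3.11 and -0.94.

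The summed levels of the stratified, simple epithelial, gland and neutrophil lists were thus lower in SJL EOM of 12 months without overlap, with 2 arrays against 2, where 25.6% of all probe sets tested were lower in that way. The array medians of SJL EOM (459 to 491) and Balb EOM (522 to 562) of 12 months did not overlap either. At 10 months the sums of the stratified, simple epithelial and neutrophil lists overlapped between the strains. The part of these sums and medians in the lower levels of the 6 genes was not tested. The lists were chosen with earlier results of these data known. On the 18 arrays without the replicate 1 arrays of 10 months, the genes lower in SJL EOM numbered 7 for stratified epithelium, 3 for simple epithelium, 2 for orbital glands and 1 for neutrophils, where 4.51% of all probe sets tested were lower. These 13 entries are 11 genes, since the lists share members, Ltf being in 3 of them and Lcn2 in 2. Among the 11, Krt8, Perp and Pax6 had a leg mean under the filter, so they were kept through EOM. On the same arrays 1 orbital gland gene was higher, where 3.75% of all were. Those 4 arrays had 3 prime to 5 prime ratios for Actb of 5.05 to 53.7, against 0.847 to 1.93 on the others, and for Gapdh of 2.17 to 19.9, against an overlapping 0.0534 to 6.71 on the others.

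The families of the 6 genes were read as well. Of 31 other keratins measured, 20 were tested, and Krt6b was the 1 that was lower in SJL EOM (-1.17, SE 0.17, adjusted p = 8.24e-04 by limma), with 0 higher and the call lost when only the EOM arrays were fitted. The median of the 20 was -0.18. Krt7 and Krt19, keratins of simple epithelia that were under the filter and were picked after their values were seen, had -2.69 and -2.17 in a fit without the filter. Krt19 read 305 to 327 in SJL EOM and 1849.8 to 3031 in Balb EOM of 12 months, against 19.9 to 179 over the 6 leg arrays of that age. Of 3 other mucins, Muc13 was the 1 tested, at -0.83 (SE 0.24, adjusted p = 0.156). Of 9 other Ets factors, 5 were tested and 0 passed, with 1 at an unadjusted p under 0.05 and a median of 0.08. No other Pglyrp gene was measured.

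The 6 genes varied together over the arrays. The correlation of each probe set with the mean of the other 7 over 22 arrays was 0.699 (162475_f_at of Pglyrp1) to 0.942 (104369_at of Krt6a). These arrays share strain, muscle, age and array medians, and the genes were chosen for the same difference, so the values are a description. The 10 other genes whose levels were most like the mean of these probe sets had correlations of 0.843 to 0.912, and they too are described without a test of their likeness.

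Closest was Plet1, a surface protein of stem cells in several epithelia (r = 0.912). It read 222 to 244 in SJL EOM and 3367 to 7215 in Balb EOM of 12 months, with no overlap. The others were Krt6b (0.901), Aldh3a1 (0.889), the cytochrome Cyp2f2 (0.877), the epidermal lipoxygenase Alox12e (0.877), Dsp (0.874), Ppl (0.855), the cytochrome Cyp4a12b (0.852), Pdzk1ip1 (0.844) and the membrane protease Mmp14 (0.843). Their EOM strain differences, Plet1 included, were -3.35 to -0.69, and their leg differences were -0.31 to 0.48. Every SJL EOM array lay below every Balb EOM array in 10 of 10 at 12 months, where 25.6% of all probe sets tested did. At 10 months this held for 3 of 10 (Plet1, Cyp2f2 and Mmp14), where 4.22% of all did. All 10 were further below 0 at 12 than at 10 months. Because the 10 genes were picked for likeness to probe sets chosen on the EOM strain difference, nothing is read from these counts.

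**Figure D4:**
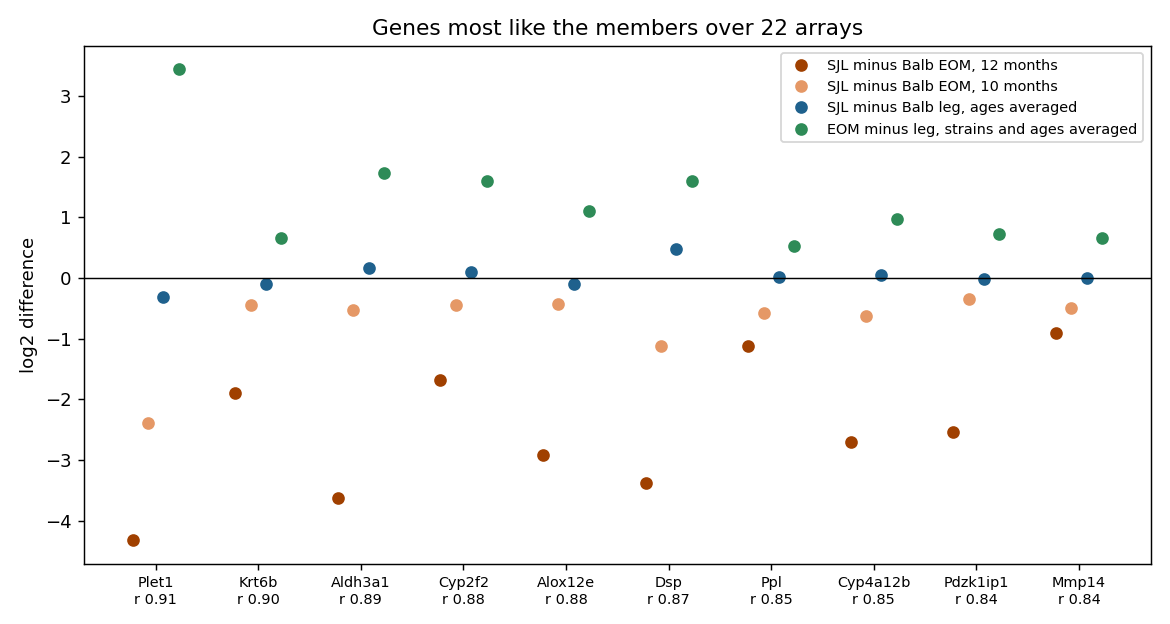
Log2 differences of the 10 genes most like the 6 genes over 22 arrays, with the correlation under each name, for SJL minus Balb EOM at 12 months and at 10 months, SJL minus Balb leg and EOM minus leg. EOM strain differences reach -4.32 at 12 months and -2.38 at 10 months for Plet1, while leg differences stay within -0.31 to 0.48.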

How the data were processed

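RNA of SJL and Balb EOM and leg muscle was measured on 22 arrays, and the age given as 1 year in the labels was taken as 12 months. The authors deposited 1 linear intensity per probe set and array, made with the standard Affymetrix protocol per the labels. Which software and background correction were used, and how probes were summarized, is not given in the sources used here. The deposited intensities had a 2%-trimmed mean of 1500.8 to 1501.1 on every array, so no further scaling was applied. Of 12488 probe sets, 66 controls were set aside. Among the other 12422, 10833 carried 1 gene symbol, and 10817 of these matched a RefSeq gene table of GRCm38.p6, used for names.

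Log2(intensity + 16) was taken, and probe sets in the lowest 30% by mean signal (under about 194) were dropped, which left 8695. A model with 8 group means was fitted with limma 3.58.1 in R 4.3.3 (lmFit, eBayes with an intensity trend, 14 residual and 3.63 prior degrees of freedom). Two-sided tests were used, with Benjamini-Hochberg adjustment over all 8695 and a threshold of 0.05, and the fit was tested on simulated data. Ages and strains were averaged with equal weight. Tables and figures were made with pandas 2.3.3 and matplotlib 3.10.9 in Python 3.11.15.

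The 6 genes, the marker lists and the tests were chosen with earlier results of these data known. Named were all probe sets of the 6 genes, the 10 other genes with the highest correlation to their mean, up to 4 genes per list with the smallest adjusted p for EOM against leg, and 7 defining epithelial markers. From the skeletal muscle list Myh3 alone is named of these 4, and from the lens, corneal stroma and retina list none is. Other genes named were lower in SJL EOM or picked after their values were seen. A gene with several probe sets was given by the one with the highest mean. Alternatives were other pseudocounts (1 and 64), no filter, quantile normalization, a replicate block, fits on only the groups compared, fits without the 4 replicate 1 arrays of 10 months, and fits that left out each array. Median centring was added after seeing the data, as were the list counts on 18 arrays and a replicate block at 10 months only, the age at which same-numbered arrays deviated together.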

Additional observations from a re-analysis of the deposited data

Results flagged for a closer look

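In 3 probe sets every 12-month EOM array lay below every 10-month array in SJL and above every 10-month array in Balb, 3 of the 8 tested, where 0.230% of all probe sets tested did so. The age difference, 12 minus 10 months, in SJL EOM less that in Balb EOM was -4.13 for 104370_s_at of Krt6a, -3.08 for 104369_at of Krt6a and -2.79 for 104099_at of Pglyrp1 on the log2(intensity + 16) scale. These differences were not tested, because they share the arrays that chose the genes. There were 2 arrays per strain at 12 months and 3 at 10 months. In 36 groups of 4 to 10 arrays, no single array stood far enough from the others to be singled out, where chance alone would single one out in about 1 group of 20.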

How the results depend on the processing

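The log2 differences of the 8 probe sets between SJL EOM and Balb EOM kept their sign in all 248 values under the alternatives. Many of these values could not move, because each group has its own mean in the fit. That holds without a leg array, without the filter, with only the EOM arrays and with the replicate block at 10 months only. The genes were also chosen on this difference, so nothing is read from the kept signs. Leaving out the 4 replicate 1 arrays of 10 months gave more calls over all probe sets in every comparison: 718 against 81 for strain in EOM, 711 against 123 for strain in leg, 3890 against 2070 for EOM against leg, 3691 against 2399 for age in EOM, 5351 against 3349 for age in leg and 452 against 1 for the change of EOM minus leg with age, where 2 of the 8 then passed. With only the EOM arrays fitted, 35 were called for strain and 1 of the 8 for age. The change with age had 0 calls with a pseudocount of 1 or median centring and 2 without the filter. Under quantile normalization and median centring, 0 of the 8 passed for age in EOM. The cause of these moves was not tested.

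Array scaling moved the medians of all probe sets with age, to 0.33 in leg and 0.17 in EOM under median centring, against -0.09 and -0.11 as reported. Calls higher against lower at 12 months were then 2637 and 1520 in leg (as reported, 1000 and 2349) and 1581 and 1108 in EOM (as reported, 688 and 1711). Quantile normalization gave 1183 and 1576 in leg and 804 and 1212 in EOM. Median centring also gave 854 higher and 1179 lower for EOM against leg (as reported, 1283 and 787), and 40 and 36 for strain in EOM (as reported, 32 and 49), while 7 of the 8 still passed for EOM against leg. Signs turned for age in EOM at 104369_at of Krt6a (0.05 with median centring) and Muc1 (0.07 with quantile normalization, 0.21 with median centring), and for the change with age at 104370_s_at of Krt6a (0.05 with a pseudocount of 64).

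Without 1 array at a time, the calls over all probe sets were 47 to 102 for strain in EOM (47 without the replicate 2 array of Balb EOM of 12 months), 86 to 147 for strain in leg, 1692 to 2589 for EOM against leg, 1446 to 2744 for age in EOM (1446 without the same array), 2880 to 3703 for age in leg and 0 to 3 for the change with age. Of the 8, 0 passed in each fit for strain in leg, 6 to 7 for EOM against leg, 0 to 3 for age in EOM and 6 to 7 for age in leg. Ranges that crossed 0 were, for strain in leg, -0.02 to 0.20 (104369_at of Krt6a) and -0.05 to 0.30 (104370_s_at), for age in EOM, -0.48 to 0.03 (104369_at), -0.19 to 0.39 (162475_f_at of Pglyrp1) and -0.35 to 0.17 (Muc1), and for the change with age, -0.37 to 0.16 (104370_s_at).

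Same-numbered arrays deviated together at 10 months (correlations 0.26 to 0.774 over 18 pairs) and not at 12 months (-0.081 to 0.039 over 12 pairs). With the replicate block over both ages, calls were 95 for strain in EOM, 161 for strain in leg, 2405 for EOM against leg, 3214 for age in EOM, 3800 for age in leg and 1 for the change with age, where 104370_s_at of Krt6a turned to 0.02, and the number of the 8 that passed was as reported. With the replicate block at 10 months only, chosen after seeing the data, calls were 290 for strain in EOM (143 higher, 147 lower), 432 for strain in leg, 3544 for EOM against leg, 4160 for age in EOM, 4899 for age in leg and 57 for the change with age (47 higher, 10 lower). Of the 8, 1 then passed for strain in leg, 8 for EOM against leg, 3 for age in EOM, 6 for age in leg and 2 for the change with age. Counts of the 8 for EOM against leg include 162475_f_at of Pglyrp1.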
